A study of Mus musculus with 12 samples.

Results

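Transforming growth factor beta (TGF-beta) signalling was followed through 10 genes in hematopoietic stem cells (HSCs), the marrow cells that renew themselves and give rise to all blood lineages. The genes are the ligand gene Tgfb1, the receptor genes Tgfbr1, Tgfbr2 and Tgfbr3, the SMAD genes Smad2, Smad3, Smad4 and Smad7, and the co-repressor genes Ski and Skil. They were picked by symbol, and each matched 1 of the 46986 features of the deposited expression table. The HSCs came from bone marrow of C57BL/6 mice aged 12 weeks, and RNA of 2000 sorted cells went into each of 12 libraries. The study set antibiotic-treated mice beside control mice, both at rest and during regeneration of the marrow.

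The libraries form 4 groups of 3. Control mice had no agent, and antibiotics mice had ampicillin, neomycin, metronidazole and vancomycin in their drinking water for 4 to 6 weeks. Control 5-FU and antibiotics 5-FU mice also received 5-fluorouracil (5-FU), an antimetabolite that kills dividing marrow cells, at 200 mg/kg into a vein, and were analysed on day 12. All 4 groups are of the same strain, age and tissue. How the sort was gated was not given in the sources used here. Nor do the labels tie each library to its own animal, so a p-value measures no more than library-to-library spread, which may be technical. In bulk RNA of sorted cells, fewer cells that express a gene and less RNA per cell cannot be told apart.

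TGF-beta is secreted in a latent form and, once released, binds TGFBR2, which recruits and activates the kinase TGFBR1, with TGFBR3 (betaglycan) as a co-receptor that presents ligand. TGFBR1 phosphorylates SMAD2 and SMAD3, which join SMAD4 and enter the nucleus, where SKI and SKIL (SnoN) hold target genes in check, and the induced inhibitor SMAD7 sends the receptors to degradation. In bone marrow the pathway is known as a brake on HSC division.

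Of the 3 genes that rose after 5-FU both without and with antibiotics, Tgfbr2, Tgfbr3 and Skil, the RefSeq promoter table (GRCm38.p6) holds an entry for Tgfbr2. Its 250 bases before the annotated start, chr9:116175364-116175613 on the minus strand, are shown because this promoter belongs to the signalling receptor whose RNA rose. Capitals mark the 1 match to the core letters that SMAD proteins are known to contact, GTCT or, on the other strand, AGAC.
Tgfbr2: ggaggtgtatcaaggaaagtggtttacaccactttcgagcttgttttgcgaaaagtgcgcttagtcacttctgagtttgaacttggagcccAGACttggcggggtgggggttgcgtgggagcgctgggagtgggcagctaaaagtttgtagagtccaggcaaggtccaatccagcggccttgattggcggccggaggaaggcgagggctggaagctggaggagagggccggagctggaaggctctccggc
The match begins at position -159, counted back from the base before the start as position -1. Such a match is common: GTCT or AGAC stood in 82.9% of 32851 promoter windows of this length, with a median of 2 matches. The longer CAGA box, CAGACA or TGTCTG, stood in 17.1% of windows and the palindromic SMAD box GTCTAGAC in 0.167%. Neither was found in the Tgfbr2 window.

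The same search covered 6 windows of 5 of the genes. Tgfb1 held 1 core match, Smad3 held 1, Ski held 0, and the pair of Tgfbr1 windows held 0 and 2. The second Tgfbr1 window also held 1 CAGA box. These counts describe letters in a window and show no binding.

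Expression is given as RPKM, the reads of a gene scaled by its length and by the library's mapped reads, and group values are mean ± SD over n = 3 libraries. In order of the mean over all 12 libraries, RPKM was 7.44 for Tgfb1, 1.60 for Tgfbr2, 1.05 for Skil, 1.01 for Tgfbr1 and 1.01 for Tgfbr3. It was 0.842 for Smad2, 0.714 for Smad3, 0.326 for Ski, 0.293 for Smad4 and 0.247 for Smad7. The ligand thus stood far above its receptors, at the 88.5th percentile of 16763 protein-coding genes above the table floor, against the 66.8th for Tgfbr2 and the 41.5th for Smad7. Only 2 steps in this order were wider than the spread over the libraries, the one from Tgfb1 to Tgfbr2 and the one from Smad3 to Ski. The other neighbours overlapped in range, and Tgfbr1 and Tgfbr3 changed places, with Tgfbr1 higher in 5 of 6 libraries without 5-FU and in 0 of 6 with it.

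Differences were tested with limma and Benjamini-Hochberg adjustment over all genes tested, and a gene is said to rise or fall where its adjusted p was under 0.05. The fit used 8553 genes that reached 1 RPKM in 3 or more libraries, on the log2(RPKM + 1) scale, which understates changes of low genes. Tgfb1, Tgfbr1, Tgfbr2, Tgfbr3 and Skil passed this filter. Tgfbr3 and Skil reached 1 RPKM in 6 libraries each and Tgfbr1 in 5, all of them after 5-FU. So 3 of the 5 passed through the 5-FU groups, and a count over the genes that passed is no evidence about the family. All 10 passed a second filter of 0.1 RPKM, chosen after the values had been seen. That fit covers 15751 genes on the log2(RPKM + 0.1) scale, called the low scale below. Log2 changes are given ± SE. Unless the low scale or another pseudocount is named, those of genes that passed the first filter are of log2(RPKM + 1). They are not the log2 of a ratio of mean RPKM, which they understate.

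**Figure D1:**
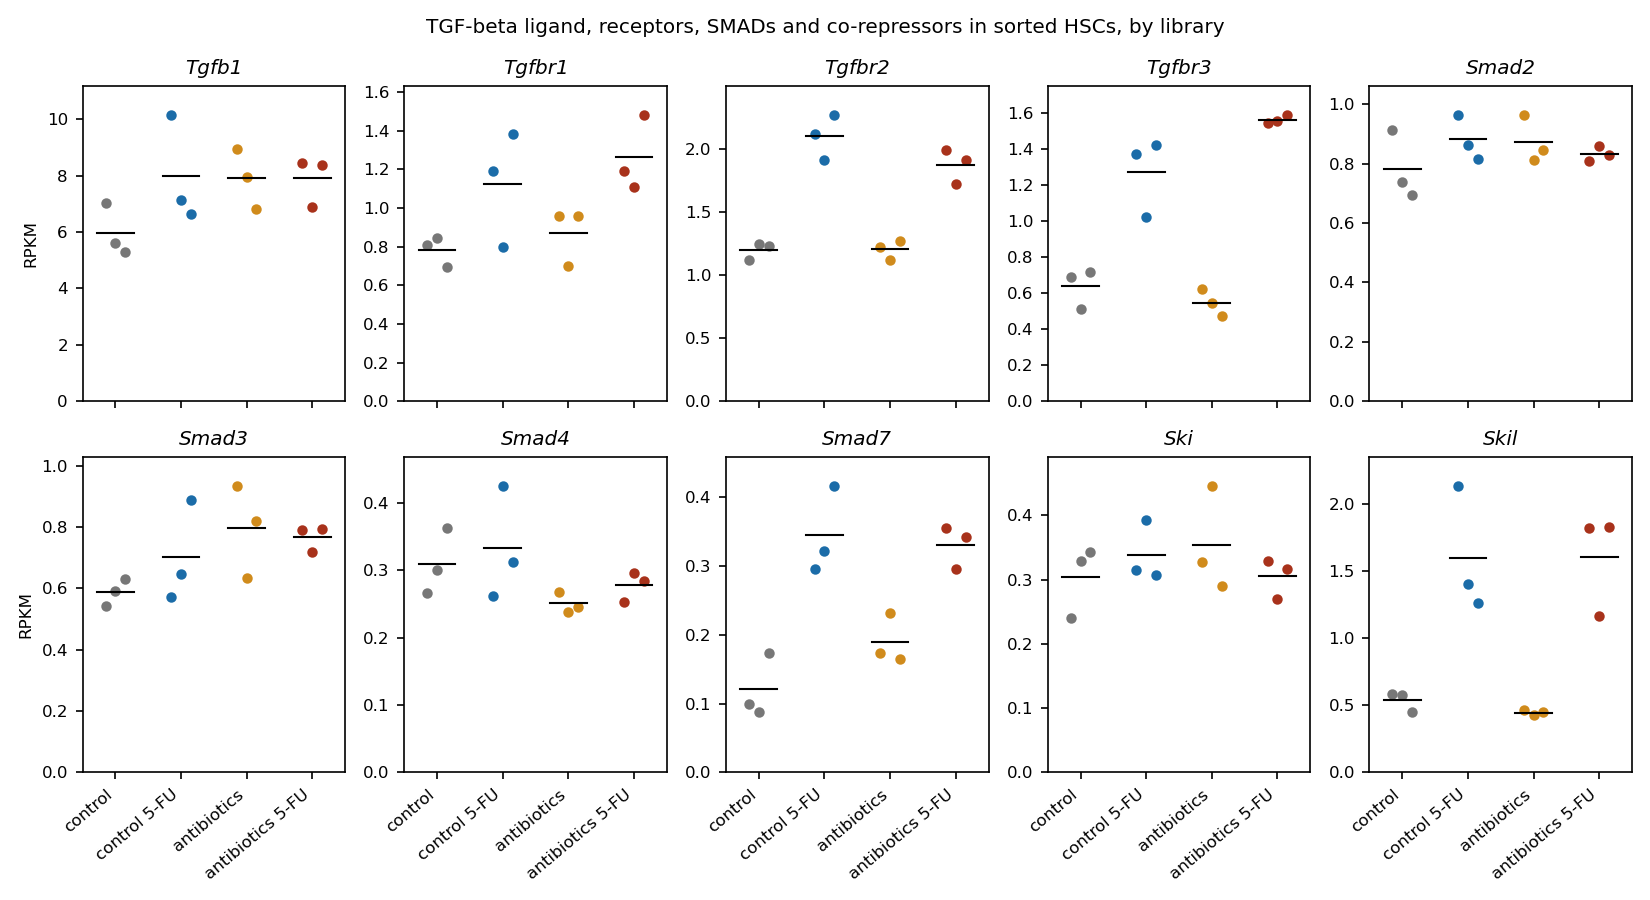
RPKM of each of the 10 genes (y axis, linear from 0, a separate scale per gene) in the 12 libraries by group (x axis). Points are libraries and bars are group means. For Tgfbr2, Tgfbr3, Smad7 and Skil every 5-FU library lies above every library without 5-FU.

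The libraries differ beyond their labels in ways that touch the results. Depth, read off the spacing of low values, was about 27.6 to 54.5 M reads, so that 0.1 RPKM was 2.8 to 5.4 reads per kilobase. Summed RPKM ran from 142127 to 176924 and was lower in every 5-FU library. None of 12 HSC markers lay at the table floor throughout, and they summed to 195 to 209 RPKM in control, 229 to 249 in control 5-FU, 169 to 209 in antibiotics and 210 to 238 in antibiotics 5-FU libraries. Among them Hoxb5, Ly6a, Slamf1, Tek and Ptprc rose and Cd34 fell after 5-FU in both comparisons (limma). Control 5-FU replicate 1 was the shallowest library and had a sum of 406 RPKM over 7 megakaryocyte and platelet markers, against 109 to 131 in the rest of its group, 58.7 to 145 in control, 84.4 to 88.7 in antibiotics and 116 to 136 in antibiotics 5-FU libraries. Control 5-FU replicate 3 had the highest sum over 10 neutrophil and monocyte markers, 398.5 RPKM, against 100 to 215 elsewhere. The 6 erythroid markers summed to 26.5 to 301 RPKM in control, 140 to 224 in control 5-FU, 37.4 to 55.2 in antibiotics and 158 to 502.5 in antibiotics 5-FU libraries. The 6 T and NK cell markers, of which Cd3e and Cd3g were at the floor throughout, summed to 25.0 to 39.4, 39.0 to 55.0, 24.0 to 27.8 and 31.9 to 37.7 RPKM in the same order. The 7 stroma and endothelium markers summed to 16.6 RPKM in control 5-FU replicate 1 and to 30.8 RPKM in antibiotics 5-FU replicate 1, against 1.43 to 6.61 RPKM in the other libraries. The part of these other cells in the results below was not tested. For some genes, values without control 5-FU replicate 1 or without antibiotics 5-FU replicate 1 are given. The i7 index sequences of the 5-FU libraries were not used for any library without 5-FU, so index and 5-FU cannot be told apart.

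Control 5-FU libraries were set against control libraries to see what differed in HSCs 12 days into recovery. The receptor genes Tgfbr2 and Tgfbr3 and the feedback genes Skil and Smad7 rose, and Tgfbr1, Smad2, Smad3 and Smad4 were not called. Tgfbr2, Tgfbr3 and Skil rose in the filtered fit, where 21.6% of all 8553 genes were called, and Smad7 rose with them on the low scale, where 12.1% of 15751 genes were called. On the low scale the count was 4 of 10 higher and 0 lower, and the same 4 genes had groups that did not overlap, against 30.3% of all genes. The median change of the 10 genes was 0.42 on the low scale, beside 0.016 for all genes.

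In mice on antibiotics, antibiotics 5-FU libraries were compared with antibiotics libraries, and no library is shared with the comparison above. Tgfbr2, Tgfbr3 and Skil rose again, in a fit where 30.2% of genes were called. On the low scale 3 of 10 genes rose and 0 fell, against 17.5% of all genes called. For 5 of 10 genes, those 3 with Tgfbr1 and Smad7, the groups did not overlap, against 39.9% of all genes. The median change of the 10 genes was 0.30, beside -0.007 for all genes. The sign of the change was the same in both comparisons for 7 of the 10 genes (70%), beside 72.9% of all genes.

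**Figure D2:**
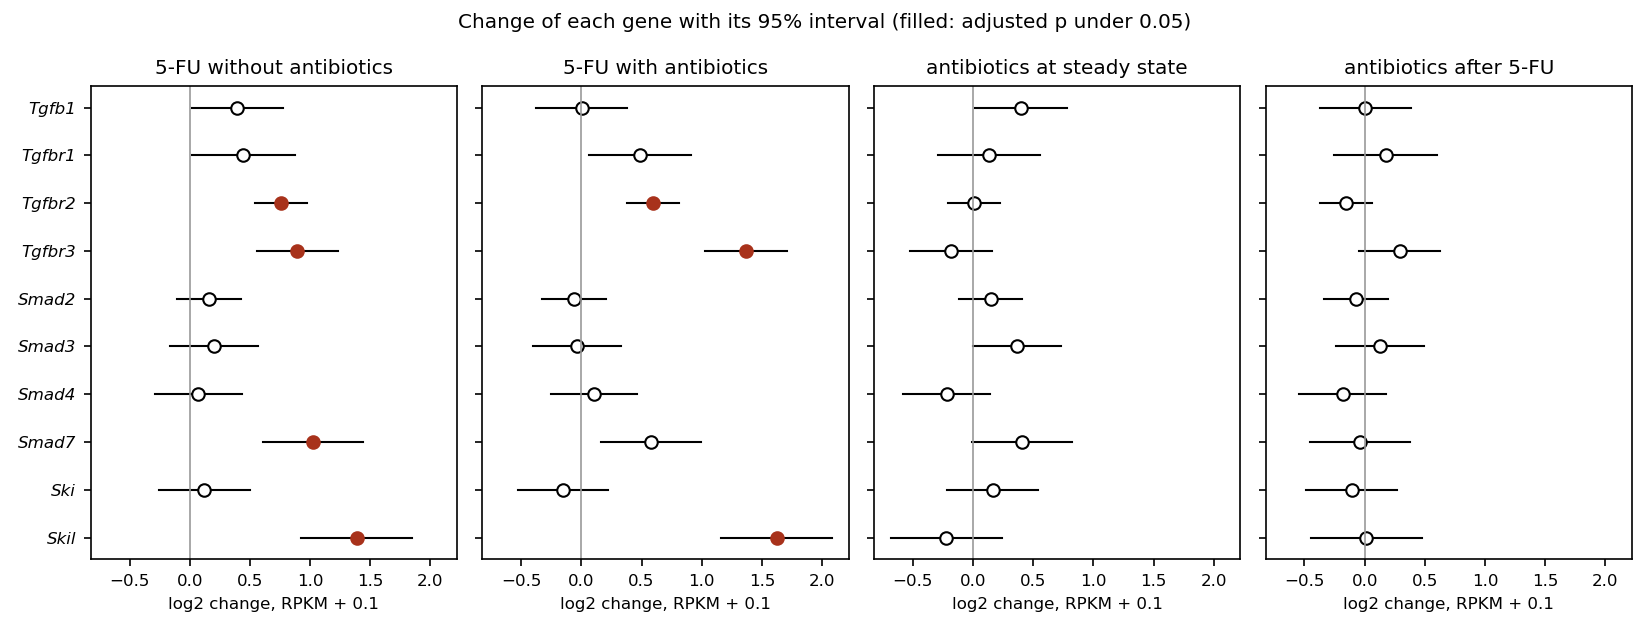
Log2 change of RPKM + 0.1 (x axis) of each of the 10 genes (y axis) in 4 comparisons. Points are estimates, bars are 95% intervals of the limma fit, and filled points passed an adjusted p of 0.05. Filled points appear in the panels with 5-FU, 4 without and 3 with antibiotics, and the panels on antibiotics hold none.

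The ligand gene Tgfb1 (chromosome 7, 25687002 to 25705077) was the most abundant of the 10. It measured 7.02, 5.62 and 5.30 RPKM in control and 10.2, 7.14 and 6.63 in control 5-FU libraries. With antibiotics it measured 8.96, 7.94 and 6.82 RPKM before and 8.44, 6.90 and 8.37 after 5-FU. The groups overlapped in both comparisons, and the high value of 10.2 belongs to control 5-FU replicate 1. The change of 0.35 ± 0.15 without antibiotics was not called (limma, adjusted p = 0.119) and was 0.18 without that replicate (adjusted p = 0.333). With antibiotics it was 0.002 ± 0.15 (adjusted p = 0.993), with a 95% interval from -0.33 to 0.34. The sister ligands lay far lower, with Tgfb2 at no more than 0.0091 RPKM and Tgfb3 at group means of 0.231 to 0.460 RPKM.

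Tgfbr2 (chromosome 9, 116087698 to 116175363), whose promoter is shown above, encodes the type II receptor that binds the ligand first. Its values were tight within groups, 1.12, 1.25 and 1.23 RPKM in control and 2.12, 1.91 and 2.27 in control 5-FU libraries. In antibiotics libraries it measured 1.23, 1.12 and 1.27 RPKM, and 1.99, 1.72 and 1.92 in antibiotics 5-FU libraries. Every 5-FU library was above every library without 5-FU. Without antibiotics the mean rose 1.75-fold, 1.20 ± 0.0661 becoming 2.10 ± 0.181 RPKM. The change of log2(RPKM + 1) was 0.49 ± 0.070 (limma, adjusted p = 0.00138), which is 1.41-fold on that shifted scale. With antibiotics the mean rose 1.56-fold, 1.21 ± 0.0785 becoming 1.88 ± 0.137 RPKM. The change of log2(RPKM + 1) was 0.38 ± 0.070 (adjusted p = 0.00254), which is 1.30-fold on that scale. Without control 5-FU replicate 1 the first change was 0.49, and without antibiotics 5-FU replicate 1 the second was 0.35 (adjusted p = 0.0128).

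Tgfbr1 (chromosome 4, 47353222 to 47414931) encodes the type I receptor, the kinase that phosphorylates SMAD2 and SMAD3. It measured 0.808, 0.845 and 0.696 RPKM in control and 1.19, 0.801 and 1.38 in control 5-FU libraries. In antibiotics libraries it measured 0.957, 0.700 and 0.962 RPKM, and 1.19, 1.11 and 1.48 after 5-FU. Control 5-FU replicate 2 lay among the control values, while with antibiotics the groups did not overlap. Neither change was called, 0.24 ± 0.11 without antibiotics (limma, adjusted p = 0.132) and 0.27 ± 0.11 with antibiotics (adjusted p = 0.0818). Leaving out control 5-FU replicate 2 turned both into calls, 0.36 (adjusted p = 0.0366) and 0.27 (adjusted p = 0.0445). Without control 5-FU replicate 1 the first change was 0.22 (adjusted p = 0.230), and without antibiotics 5-FU replicate 1 the second was 0.29 (adjusted p = 0.122). The ratio of Tgfbr2 to Tgfbr1 inside a library, free of library scaling, was 1.54 ± 0.195 in control, 1.94 ± 0.396 in control 5-FU, 1.40 ± 0.174 in antibiotics libraries, and it ran from 1.29 to 1.67 in antibiotics 5-FU libraries. The groups overlapped.

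Tgfbr3 (chromosome 5, 107106570 to 107289629), the co-receptor gene, was about level with Tgfbr1 on average but moved further. It measured 0.687, 0.511 and 0.717 RPKM in control and 1.37, 1.02 and 1.42 in control 5-FU libraries. In antibiotics libraries it measured 0.623, 0.544 and 0.475 RPKM, and 1.54, 1.56 and 1.59 in antibiotics 5-FU libraries. The groups did not overlap in either comparison, and the antibiotics 5-FU libraries were also all above the control 5-FU libraries. The mean rose 1.99-fold without antibiotics. The change of log2(RPKM + 1) was 0.47 ± 0.085 (limma, adjusted p = 0.00423), and 0.44 without control 5-FU replicate 1 (adjusted p = 0.0101). With antibiotics the mean rose 2.86-fold. The change on the same log2 scale was 0.73 ± 0.085 (adjusted p = 0.000329), and 0.74 without antibiotics 5-FU replicate 1 (adjusted p = 0.00194). The ratio of Tgfbr3 to Tgfbr2 inside a library was 0.776, 0.904 and 0.830 in antibiotics 5-FU libraries, above all 9 others, which ran from 0.373 to 0.648.

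Smad2, Smad3 and Smad4 were not called after 5-FU. Smad2 (chromosome 18, 76241580 to 76305731), which encodes a substrate of TGFBR1, measured 0.914, 0.739 and 0.694 RPKM in control, 0.965, 0.863 and 0.816 in control 5-FU, 0.964, 0.811 and 0.844 in antibiotics and 0.810, 0.860 and 0.829 in antibiotics 5-FU libraries. Its 12 values spanned 1.39-fold, the narrowest range of the 10 genes. The low-scale change was 0.16 ± 0.12 without antibiotics (limma, adjusted p = 0.428) and -0.059 ± 0.12 with antibiotics (adjusted p = 0.784). The 95% intervals ran from -0.11 to 0.42 and from -0.32 to 0.21, so a 2-fold change lies outside both.

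Smad3 (chromosome 9, 63646767 to 63757994) encodes the other substrate, which binds DNA directly. It measured 0.544, 0.592 and 0.631 RPKM in control, 0.573, 0.647 and 0.888 in control 5-FU, 0.935, 0.633 and 0.821 in antibiotics and 0.789, 0.718 and 0.793 in antibiotics 5-FU libraries. The groups with and without 5-FU overlapped, and the low-scale changes were 0.20 ± 0.16 (limma, adjusted p = 0.464) and -0.035 ± 0.16 (adjusted p = 0.911). Smad4 (chromosome 18, 73639009 to 73703780), the partner shared with the bone morphogenetic protein (BMP) branch, measured 0.266, 0.300 and 0.363 RPKM in control, 0.262, 0.426 and 0.313 in control 5-FU, 0.269, 0.239 and 0.246 in antibiotics and 0.253, 0.296 and 0.284 in antibiotics 5-FU libraries. These groups overlapped as well, with changes of 0.071 ± 0.16 (adjusted p = 0.82) and 0.10 ± 0.16 (adjusted p = 0.707).

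Smad7 (chromosome 18, 75367529 to 75395935), the inhibitory SMAD that TGF-beta itself induces, was the lowest of the 10 genes. It measured 0.0992, 0.0884 and 0.174 RPKM in control and 0.296, 0.322 and 0.417 in control 5-FU libraries. In antibiotics libraries it measured 0.174, 0.232 and 0.164 RPKM, and 0.355, 0.296 and 0.343 in antibiotics 5-FU libraries. All 6 libraries with 5-FU were above all 6 without. The mean rose 2.86-fold without antibiotics, from 0.121 ± 0.0467 to 0.345 ± 0.0636 RPKM, a low-scale change of 1.02 ± 0.19 (limma, adjusted p = 0.00775), and 1.10 without control 5-FU replicate 1 (adjusted p = 0.0103). With antibiotics the ratio of means was 1.74 and the change 0.58 ± 0.19, which was not called (adjusted p = 0.0574) but was called without control replicate 3 (adjusted p = 0.0405). Without antibiotics 5-FU replicate 1 it was 0.54 (adjusted p = 0.145). The difference between the changes, -0.45 ± 0.27, was not called either (adjusted p = 0.773). At these levels the values rest on few reads.

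Of the co-repressor pair Skil rose and Ski was not called. Ski (chromosome 4, 155154075 to 155222592), whose product binds SMADs and recruits histone deacetylases, measured 0.241, 0.329 and 0.343 RPKM in control, 0.315, 0.392 and 0.307 in control 5-FU, 0.328, 0.446 and 0.290 in antibiotics and 0.330, 0.271 and 0.316 in antibiotics 5-FU libraries. Its groups overlapped, and the low-scale changes after 5-FU were 0.12 ± 0.17 (limma, adjusted p = 0.695) and -0.15 ± 0.17 (adjusted p = 0.584).

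Skil (chromosome 3, 31095058 to 31122577), a paralog of Ski that TGF-beta induces as feedback, had the widest span of the 10 genes, 5.03-fold over the libraries. It measured 0.585, 0.579 and 0.453 RPKM in control and 2.14, 1.41 and 1.26 in control 5-FU libraries. In antibiotics libraries it measured 0.462, 0.425 and 0.448 RPKM, and 1.83, 1.17 and 1.83 in antibiotics 5-FU libraries. The lowest 5-FU library was well above the highest library without 5-FU. The mean rose 2.97-fold without antibiotics. The change of log2(RPKM + 1) was 0.74 ± 0.13 (limma, adjusted p = 0.00363). It was 0.60 without control 5-FU replicate 1 (adjusted p = 0.00561), the library with the highest Skil value. With antibiotics the mean rose 3.61-fold. The change on the same log2 scale was 0.84 ± 0.13 (adjusted p = 0.00116), and 0.78 without antibiotics 5-FU replicate 1 (adjusted p = 0.00574).

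Ratios between genes of 1 library do not depend on how libraries are scaled. The ratio of Skil to Ski was 2.43, 1.76 and 1.32 in control and 6.79, 3.59 and 4.11 in control 5-FU libraries. It was 1.41, 0.953 and 1.55 in antibiotics and 5.53, 4.32 and 5.79 in antibiotics 5-FU libraries. Every 5-FU library was above every library without it. The ratio of Smad7 to Smad2 showed the same separation, with 0.109 to 0.287 without and 0.307 to 0.511 with 5-FU. Skil and Smad7 already stood apart in RPKM, so these ratios are not separate evidence of a change. The share of gene pairs that separate in this way was not computed. The ratio of Smad3 to Smad2 was 0.769 ± 0.160 in control, 0.811 ± 0.252 in control 5-FU, 0.908 ± 0.110 in antibiotics and 0.922 ± 0.0762 in antibiotics 5-FU libraries, and overlapped throughout.

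**Figure D3:**
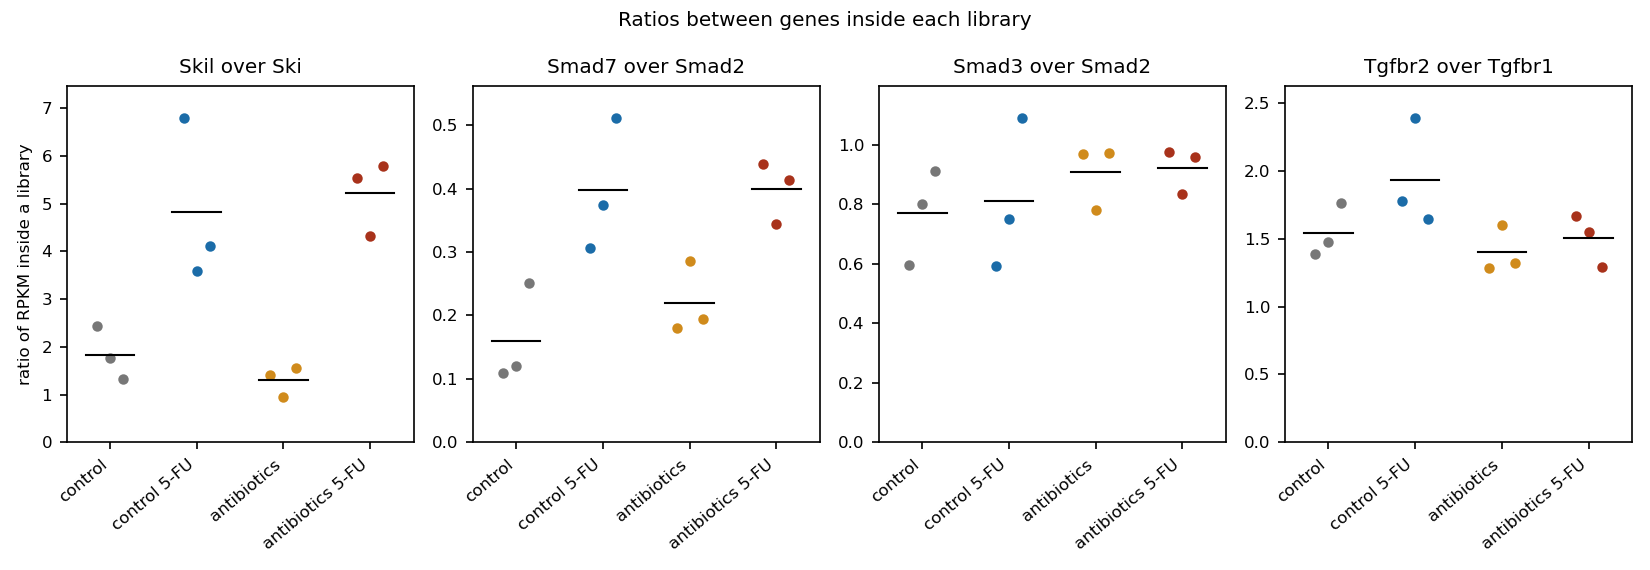
Ratio of the RPKM of 2 genes inside each library (y axis, linear from 0) by group (x axis), with points for libraries and bars for group means. Skil over Ski and Smad7 over Smad2 are higher in all 6 libraries with 5-FU, while Smad3 over Smad2 and Tgfbr2 over Tgfbr1 overlap between groups.

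The rest of the pathway was read from 9 lists with 117 further genes, of which 50 passed the 1 RPKM filter. After 5-FU 14 rose and 3 fell without antibiotics, 34% of those measured, beside 21.6% of all genes. With antibiotics 11 rose and 3 fell, 28% beside 30.2% of all genes. Of the 50, 3 genes (Smad1, Cdkn1a and Mmp2) reached 1 RPKM only in libraries with 5-FU and 0 only in libraries without it, so these shares support nothing about the pathway. Without control 5-FU replicate 1 the counts were 12 and 3, and 16 and 3, beside 24.3% and 33.6% of all genes called. Without antibiotics 5-FU replicate 1 they were 13 and 3, and 7 and 2, the second 9 calls in place of 14. In that fit 19.3% and 23.5% of all genes were called. On the low scale 86 genes were measured, 68 of them (79.1%) changed with the same sign in both comparisons, and 10 (11.6%) were called in both, beside 72.9% and 7.86% of all genes.

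Of 10 further measured genes that TGF-beta is known to raise, 5 rose and 0 fell in each comparison, beside 21.6% and 30.2% of all genes called. The median change was 0.65 without and 0.47 with antibiotics, beside 0.0045 and -0.014 for all genes. Of the 10, Cdkn1a reached 1 RPKM only in libraries with 5-FU, so this count is no evidence about the pathway. On the low scale 4 of 12 rose and 0 fell in each comparison, beside 12.1% and 17.5% of all genes called. Tgfbi, which encodes a secreted matrix protein named for its induction by TGF-beta, measured 1.14, 0.941 and 1.02 RPKM in control and 4.48, 3.60 and 4.86 in control 5-FU libraries. In antibiotics libraries it measured 0.526, 0.897 and 0.690 RPKM, and 3.61, 3.03 and 3.56 in antibiotics 5-FU libraries. The groups stood apart, with log2 changes of 1.38 ± 0.11 (limma, adjusted p = 3.5e-05) and 1.37 ± 0.11 (adjusted p = 2.5e-05). Junb, an AP-1 transcription factor gene that many other stimuli also raise, rose from 46.9 ± 8.33 to 110.3 ± 10.8 RPKM without antibiotics and from 45.5 ± 11.2 to 104.6 ± 6.29 RPKM with antibiotics.

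Bhlhe40, which encodes a basic helix-loop-helix repressor, rose from 3.69 ± 1.81 to 7.84 ± 1.72 RPKM without antibiotics (0.96 ± 0.24, limma adjusted p = 0.0161) and from 1.64 ± 0.454 to 9.49 ± 0.948 RPKM with antibiotics (95% interval of the log2 change from 1.48 to 2.52, adjusted p = 0.000339). Tsc22d1, a leucine zipper gene first found as a TGF-beta-stimulated transcript, rose by 0.74 ± 0.12 (adjusted p = 0.00216) and 0.33 ± 0.12 (adjusted p = 0.0491), the second of which lost its call in 10 of 18 alternatives. Of 7 measured targets that TGF-beta is known to lower, 1 fell and 0 rose in each comparison, beside 21.6% and 30.2% of all genes called. That gene was Myc, a driver of growth and ribosome production, which fell from 69.4 ± 5.67 to 37.8 ± 7.32 RPKM without antibiotics (-0.87 ± 0.13, adjusted p = 0.00194) and from 65.9 ± 9.44 to 35.6 ± 1.56 RPKM with antibiotics (-0.86 ± 0.13, adjusted p = 0.00119). The others were not called. The median change of the 7 was 0.0083 without and -0.14 with antibiotics, beside 0.0045 and -0.014 for all genes. Mean RPKM of Id1 and Id3 was higher after 5-FU in both comparisons, with both highest in control 5-FU replicate 1. For Id3 without antibiotics this rested on that library, with 29.2, 0.46 and 0.56 RPKM in control 5-FU against 3.32, 0.58 and 0.60 in control libraries. Among antibiotics 5-FU libraries replicate 1 was the highest, at 10.4 RPKM for Id1 and 13.9 RPKM for Id3. Mean RPKM of Cdc25a and Ccna2 was lower in both comparisons, and that of Id2 and E2f1 was higher without and lower with antibiotics.

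Among SMADs of the BMP branch, Smad1 rose and Smad9 was at the table floor in all 12 libraries. Smad1 went from 0.529 ± 0.0049 to 1.20 ± 0.321 RPKM without antibiotics (0.52 ± 0.11, limma adjusted p = 0.0104) and from 0.754 ± 0.152 to 1.40 ± 0.268 RPKM with antibiotics (0.45 ± 0.11, adjusted p = 0.013). Smad5 rose without antibiotics, from 3.24 ± 0.112 to 4.34 ± 0.595 RPKM (0.33 ± 0.085, adjusted p = 0.02), and with antibiotics its change was 0.22 ± 0.085 (adjusted p = 0.0704). Among receptors outside the family 1 of 11 passed the filter, Eng, the endothelial co-receptor endoglin that HSCs also carry, at 7.24 ± 0.0949 RPKM in control and 7.36 ± 1.77 in control 5-FU libraries. It was not called in either comparison. Of 1 further ligand that passed, Gdf3 rose with antibiotics by 0.67 ± 0.17 (adjusted p = 0.0112).

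In the list of latency and activation 4 of 8 measured genes rose and 1 fell without antibiotics, beside 21.6% of all genes called. With antibiotics 1 rose and 0 fell, beside 30.2% of all genes. Of the 8, Mmp2 reached 1 RPKM only in libraries with 5-FU. Thbs1, whose product thrombospondin-1 can release active TGF-beta, fell by 2.15 ± 0.48 on the log2 scale without antibiotics (limma, adjusted p = 0.0111). Its control values, 5.73, 16.9 and 6.98 RPKM, were spread widely, and with antibiotics its change of -0.37 ± 0.48 was not called. Itgb3, an integrin chain also abundant on platelets, rose in both comparisons, by 0.83 ± 0.20 (adjusted p = 0.014) and 0.62 ± 0.20 (adjusted p = 0.0349). The first value was 0.57 without control 5-FU replicate 1, the library with the high sum of platelet markers. Itgb1, a broadly expressed integrin chain (0.60 ± 0.16, adjusted p = 0.0221), and Furin, the protease that cleaves the TGF-beta precursor (0.32 ± 0.084, adjusted p = 0.0214), rose without antibiotics. Itgb1 lost its call without that library (adjusted p = 0.0563).

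Among 9 measured regulators of receptors and SMADs, Stub1, which encodes a chaperone-linked ubiquitin ligase, fell in both comparisons, by 0.35 ± 0.080 (limma, adjusted p = 0.012) and 0.66 ± 0.080 (adjusted p = 0.000387) on the log2 scale. With antibiotics 3 regulators rose, the secreted follistatin-like gene Fstl1 (0.54 ± 0.073, adjusted p = 0.00061), the immunophilin gene Fkbp1a, whose product holds TGFBR1 inactive (0.29 ± 0.091, adjusted p = 0.0341), and the deubiquitinase gene Usp15 (0.24 ± 0.079, adjusted p = 0.039). Of 8 further nuclear partners, the co-repressor gene Tgif1 (0.59 ± 0.13, adjusted p = 0.00979) and the acetyltransferase gene Ep300 (0.33 ± 0.080, adjusted p = 0.016) rose without antibiotics, and Rbl1, which encodes the pocket protein p107, fell with antibiotics (-0.26 ± 0.087, adjusted p = 0.0429). In the branch that bypasses SMADs 1 of 4 measured genes, the ubiquitin ligase gene Traf6, rose without antibiotics (0.28 ± 0.080, adjusted p = 0.0284). Beside these counts, 21.6% of all genes were called without and 30.2% with antibiotics. Calls made in 1 of the comparisons are not shown to differ from the other, since the interaction called 0 of the 50 genes.

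These pathway calls were of unequal firmness. Of 28 calls of the named pathway genes after 5-FU, 12 were also made in all 18 alternative settings, those of Tgfbi, Junb and Myc in both comparisons, of Tgif1, Tsc22d1 and Smad1 without antibiotics and of Stub1, Fstl1 and Bhlhe40 with antibiotics. The other 16 calls were lost in 1 to 12 settings, most often that of Rbl1, with limma adjusted p up to 0.227. Without control 5-FU replicate 1 the calls of Itgb1 and Traf6 without antibiotics were lost (adjusted p = 0.0563 and 0.0587). Without antibiotics 5-FU replicate 1 those of Itgb3, Fkbp1a, Usp15, Rbl1 and Tsc22d1 with antibiotics were lost (adjusted p from 0.0629 to 0.126).

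**Figure D4:**
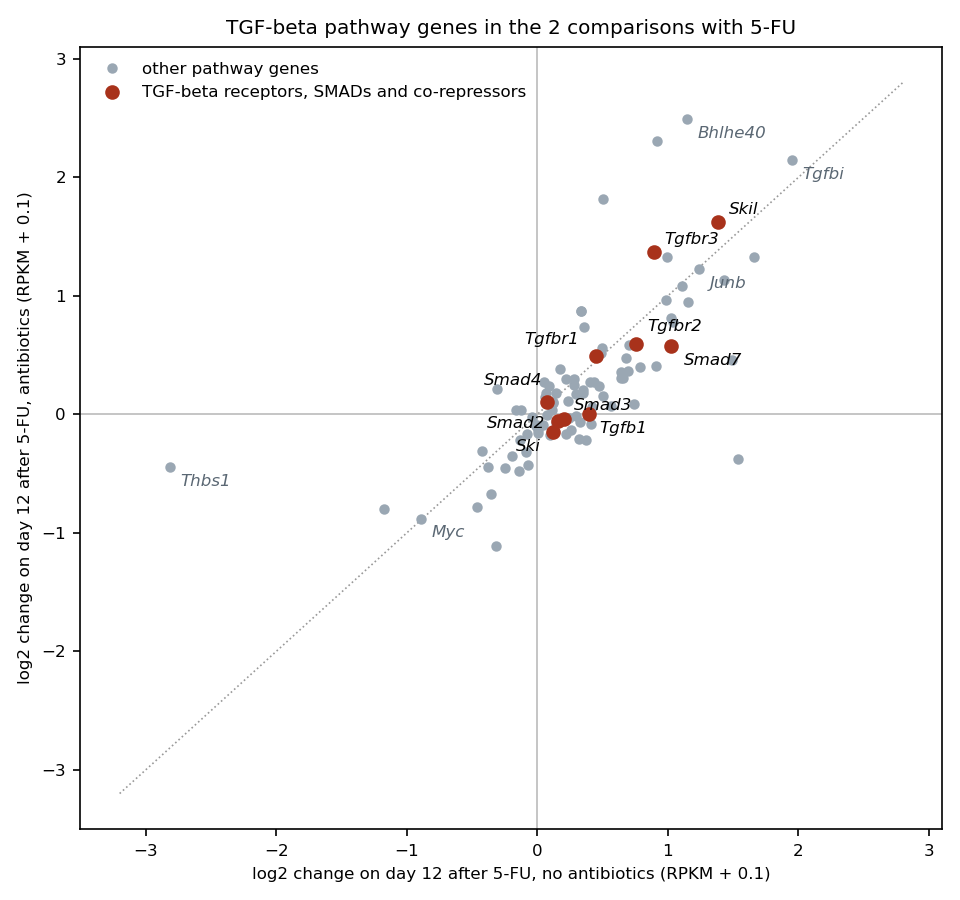
Log2 change of RPKM + 0.1 on day 12 after 5-FU without antibiotics (x axis) and with antibiotics (y axis), with the 10 genes in red and 86 other pathway genes in grey. The dotted line marks equal change. Skil, Tgfbr3, Tgfbr2 and Smad7 lie in the upper right with the target Tgfbi, and Smad2, Smad3, Smad4 and Ski lie near the centre.

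Antibiotics libraries were compared with control libraries for an effect of the drugs at steady state, and 0 of the 10 genes were called on either scale. Few genes of any kind were, 0.0702% of 8553 and 0.0635% of 15751. Unadjusted p was under 0.05 for 2 of the 10, and for 2259 of all 15751 genes. These 2 were Tgfb1, with 5.98 ± 0.917 against 7.91 ± 1.07 RPKM and a low-scale change of 0.40 ± 0.17 (limma, adjusted p = 0.329), and Smad3, with 0.589 ± 0.0438 against 0.796 ± 0.152 RPKM and a change of 0.37 ± 0.16 (adjusted p = 0.344). Smad3 was the 1 gene whose groups did not overlap, against 19.1% of all genes, though its nearest values were 0.631 and 0.633 RPKM. For Tgfbr2 the change was 0.008 ± 0.098 on the low scale, with a 95% interval from -0.21 to 0.23. The median change of the 10 genes was 0.14, beside 0.033 for all genes.

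After 5-FU, antibiotics 5-FU libraries were compared with control 5-FU libraries, and again 0 of the 10 genes were called. Of all genes 0.117% of 8553 and 0.0635% of 15751 were called, and unadjusted p was under 0.05 for 0 of the 10 genes and 1896 of all genes on the low scale. Tgfbr3 was the 1 gene whose groups did not overlap, against 18.2% of all genes, at 1.27 ± 0.218 against 1.56 ± 0.0244 RPKM and a low-scale change of 0.29 ± 0.15 (limma, adjusted p = 0.487). Smad7, at 0.345 ± 0.0636 against 0.331 ± 0.031 RPKM, and Skil, at 1.60 ± 0.470 against 1.61 ± 0.381 RPKM, had nearly equal means. Their 95% intervals, -0.45 to 0.38 and -0.45 to 0.47 on the low scale, leave room for moderate differences.

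The interaction tested whether the change after 5-FU differed between mice with and without antibiotics. It called 0 of the 10 genes on either scale, beside 0.0117% of 8553 and 0.0127% of 15751 genes, and unadjusted p was under 0.05 for 0 of the 10 and for 1116 of all 15751 genes. Tgfbr3 came nearest, with a low-scale change larger by 0.47 ± 0.22 with antibiotics (limma, adjusted p = 0.706). The interval for Tgfbr2 ran from -0.47 to 0.14 and for Skil from -0.42 to 0.89 on the low scale. Equality of the responses is therefore not shown.

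Scaling bears on directions near 0. Summed RPKM was lower after 5-FU. In the filtered fit, rescaling every library to 1 total moved the median change of all genes from 0.0045 to 0.18 without and from -0.014 to 0.15 with antibiotics. It raised the share of calls in the upward direction from 45.1% to 81.1% and from 45.4% to 74.1%. That total was larger than the deposited sums while the pseudocount stayed at 1, so these shifts mix scaling with a lighter pseudocount. The calls of Tgfbr2, Tgfbr3 and Skil in both comparisons, and of Smad7 without antibiotics, were also made after rescaling. Calls were added for Tgfb1 without antibiotics (0.57, limma adjusted p = 0.0282) and, with antibiotics, for Tgfbr1 (0.61, adjusted p = 0.0411) and Smad7 (0.70, adjusted p = 0.0253). With a pseudocount of 0.1 and no rescaling, the Tgfb1 change was 0.40 (limma, adjusted p = 0.115) and the Tgfbr1 change 0.49 (adjusted p = 0.0887), neither of them called. The Smad7 value is on the low scale, where the pseudocount kept its weight on average. The small negative changes of Smad2 and Smad3 with antibiotics turned positive.

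Genes with the most similar profile were found by the root mean square difference of centred log2(RPKM + 1) over the 12 libraries, among 7211 protein-coding (7212 for Smad7) genes that passed the filter. Nearest to Tgfbr2 were Zfp189 (0.073), Tbc1d2b (0.078) and Cpne3 (0.080), against an SD of 0.24 of Tgfbr2 itself. Nearest to Skil were Tppp3 (0.065), Arap3 (0.11) and Itga5 (0.12), against its own SD of 0.44. Tgfbr1 had Pcmtd1 (0.067), Atp6ap2 (0.069) and Usp9x (0.075), and Smad7 had Proser1 (0.052), Rabep2 (0.052) and Hnrnph2 (0.057), with own SDs of 0.18 and 0.12. The points of each profile share the same libraries and their depth, and many genes that move with 5-FU would lie close by this measure.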

How the data were processed

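Total RNA was isolated (RNeasy Plus Micro) and turned into libraries by SMART-Seq v4 and Nextera XT, per the labels' protocols. STAR 2.5.3a, Partek and mm10 are named in the submitters' processing notes, while the counting rule was not given in the sources used here, nor were the strand setting and annotation release. RPKM values made by the authors were deposited as 1 table, with 0.0001 in place of 0, and all 12 sample columns were used. Positions come from that table, with the end as the stop less 1. Read totals are not stated, and the spacing of low values gave approximate depths only, since 45.8% to 53.5% of them lay within 0.05 of a whole read, too few for a count test.

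With R 4.3.3 and limma 3.58.1, log2 values of all 12 libraries were fitted with 4 group means, 8 residual degrees of freedom and an intensity trend (checked on simulated data). Tests were two-sided, with Benjamini-Hochberg adjustment within a comparison at 0.05. An exact permutation test of 3 against 3 cannot go below p = 0.1 and was not run. The 10 genes and all lists were chosen with earlier results of these data known. All 10 genes were named, with up to 4 genes per list by smallest p among those called, Tgfb2, Tgfb3, Eng and Smad9 being named after their values were seen. Alternatives were another pseudocount, filter, scaling, trend setting or set of libraries.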

Additional observations from a re-analysis of the deposited data

How the results depend on the processing

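For the 10 genes, 731 of the values recomputed under alternative settings kept their direction and their side of the threshold, 6 gained a call, 33 changed sign and 0 lost a call. Tgfbr2, Tgfbr3 and Skil were called after 5-FU in all 18 alternatives of both comparisons, with adjusted p up to 0.0199, 0.0371 and 0.0213 without antibiotics and 0.0139, 0.00219 and 0.00709 with antibiotics. Smad7 was called without antibiotics in all 13 alternatives (adjusted p up to 0.0359). The sign changes concern values that were not called. With libraries rescaled to 1 total, the difference of antibiotics 5-FU from control 5-FU libraries was -0.033 for Tgfb1 and -0.024 for Skil, and that of antibiotics from control libraries was -0.021 for Tgfbr2. The change after 5-FU in antibiotics mice was 0.098 for Smad2 and 0.12 for Smad3. Leaving out 1 library at a time, the change after 5-FU with antibiotics ran from -0.088 to 0.086 for Tgfb1, from -0.10 to 0.0075 for Smad2 and from -0.17 to 0.076 for Smad3. That of Smad4 without antibiotics ran from -0.077 to 0.19. Between the 5-FU groups the range was -0.10 to 0.17 for Tgfb1, -0.018 to 0.18 for Tgfbr1, -0.087 to 0.15 for Skil and -0.12 to 0.074 for Smad7. It was -0.020 to 0.033 for Tgfbr2 at steady state, and for the interaction -0.087 to 0.12 for Tgfbr1 and -0.088 to 0.18 for Smad4. The count of other pathway genes called ran from 10 to 17 without antibiotics, lowest without control replicate 3, and from 8 to 19 with antibiotics, lowest without antibiotics replicate 2. In those lowest fits the share of all genes called also fell, from 21.6% to 11% and from 30.2% to 19%. The count was 8 in place of 17 when only the compared groups entered the fit without antibiotics, where 9.49% of all genes were called. A group left with 2 libraries shares the spread of the others. No paired analysis was possible because the labels carry no replicate numbers that tie libraries together. Depth limits Smad7, Ski and Smad4 most, at 2.8 to 5.4 reads per kilobase for each 0.1 RPKM.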
